A study of Mus musculus with 8 samples.

Results

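Krt1, Krt10, Krt2 and Krt77 are keratin genes of the suprabasal epidermis, the layers above the dividing basal cells. The 4 genes were taken by name, as every probeset annotated to exactly 1 of those symbols, and each had 1 probeset, so that 4 of the 34945 single-symbol probesets and 4 of 18193 genes are described. The gene group was proposed for the course of these levels over the stages, with a transient Krt77 signal, so the levels and differences of the 4 genes are given as a description, with no test. The samples were wild-type mouse dorsal skin, on 1 array each, from embryonic day 14.5 (E14.5, 2 arrays), 16.5 (E16.5, 3 arrays) and 18.5 (E18.5, 3 arrays), with no treatment named in the labels. The labels do not say whether arrays of a stage came from separate embryos or litters, or whether RNA was pooled. The titles carry codes that are not explained. Those of both E14.5 arrays begin alike, but that of E18.5 replicate 3 begins so too, and the codes do not settle the question. The spread between the arrays of a stage may therefore be technical. The tissue was whole dorsal skin, in which more cells of a type and more RNA per cell cannot be told apart.

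Keratins form the intermediate filaments of epithelial cells as pairs of 1 type I and 1 type II protein. Basal keratinocytes make Krt5, a type II keratin, with Krt14, a type I keratin. On leaving the basal layer they switch to Krt1, a type II keratin, with Krt10, a type I keratin. Krt2 is a type II keratin of the upper spinous and granular layers that can also pair with Krt10, and in adult mice it is best known from ear, tail and sole skin. Krt77 is a further type II keratin, for which the gene annotation lists K1emb among its synonyms. In the annotation (assembly GRCm38.p6) the 3 type II genes lie in the keratin cluster of chromosome 15, and Krt10 lies in the type I cluster of chromosome 11.

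The 250 bases before the annotated start of Krt77, Krt10 and Krt2 are shown, because Krt77 and Krt10 followed different courses in these samples and Krt2 gave no signal clear of background. The sequences are from RefSeq (GRCm38.p6), each from the minus strand and written 5′ to 3′, at chr15:101869706-101869955 for Krt77, chr11:99389365-99389614 for Krt10 and chr15:101818170-101818419 for Krt2. Of the 4 genes, 3 were matched in the promoter table, and Krt1 was not. Capitals mark TATATA or TATAAA.
Krt77: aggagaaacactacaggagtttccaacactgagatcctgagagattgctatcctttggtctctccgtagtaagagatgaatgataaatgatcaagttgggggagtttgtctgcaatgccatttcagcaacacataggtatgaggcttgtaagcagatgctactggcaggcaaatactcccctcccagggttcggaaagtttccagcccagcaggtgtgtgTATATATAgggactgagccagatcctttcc
Krt10: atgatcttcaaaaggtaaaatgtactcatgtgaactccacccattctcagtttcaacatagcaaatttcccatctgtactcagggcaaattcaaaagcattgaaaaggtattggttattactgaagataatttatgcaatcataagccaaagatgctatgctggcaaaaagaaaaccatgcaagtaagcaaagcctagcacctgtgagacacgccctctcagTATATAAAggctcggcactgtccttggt
Krt2: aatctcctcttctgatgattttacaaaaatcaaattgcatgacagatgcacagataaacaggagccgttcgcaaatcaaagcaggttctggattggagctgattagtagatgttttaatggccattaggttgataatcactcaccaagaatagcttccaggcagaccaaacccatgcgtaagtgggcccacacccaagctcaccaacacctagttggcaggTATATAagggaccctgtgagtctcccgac

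The letters TATATA, which read the same on both strands, occurred in all 3 windows, starting 30 and 28 bases before the annotated start in Krt77 as 2 overlapping matches, 28 bases before it in Krt10 and 29 bases before it in Krt2. The same letters were found in 5.25% of the 32851 windows of this length in the promoter table. TATAAA, the consensus TATA box, was found on the forward strand in Krt10 alone of the 3, overlapping its TATATA, and on either strand in 12.4% of all windows. TTNNGCAA, a form of the C/EBP motif, matched once on the forward strand in Krt77 (129 bases before the start) and once in Krt10 (119 bases before it), against 9.56% of all windows on either strand. CACCC, a Krüppel-like factor motif, had 1 match in Krt10, 1 in Krt2 and 0 in Krt77, on either strand, against 52% of all windows. TGANTCA (AP-1) and GCCNNNGGC (AP-2) were absent from the letters of all 3 windows, against shares of 6.75% and 13.7% of all windows.

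Values are deposited probeset signals on a linear scale, in arbitrary units. Background on each array was set from 80 probesets of odorant and pheromone receptor genes, as the signal that 95% of them did not exceed. It was 43.9 to 45.7 on E14.5 arrays, 33.6 to 53.2 on E16.5 arrays and 62.2 to 92.2 on E18.5 arrays. All 11 basal keratinocyte markers and all 9 dermal fibroblast markers measured were above it on every array. The E14.5 arrays stood apart in their controls: beta-actin probesets gave a 3′ to 5′ ratio of 6.49 to 6.91 there, compared with 1.11 to 1.14 on E16.5 arrays and 1.35 to 1.37 on E18.5 arrays. A Cre control probeset gave 52237 and 52566 on E14.5 arrays, 14152 to 15316 on E16.5 arrays and 20039 to 20942 on E18.5 arrays. Stage and array preparation therefore cannot be told apart in any comparison with E14.5. The Cre control was also higher on every E18.5 array than on any E16.5 array, and the part of that shift in gene differences between these stages was not tested. The signal of the median probeset of 1 gene symbol was 2.10-fold higher at E16.5 than at E14.5 and 1.09-fold higher at E18.5 than at E16.5.

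Krt77 was the only one of the 4 genes with a peak at the middle stage. Its signal was 2502.5 and 2988 on the E14.5 arrays. At E16.5 it was 20228, 20971 and 20908. At E18.5 it was 612, 696 and 327. No array of one stage overlapped with an array of another, and the lowest E18.5 array, replicate 3, still lay 4.03 times above its background. The share of all genes without overlap was not counted, here or for Krt1 and Krt10 below. With so few arrays a stage, lack of overlap alone says little: Krt76, below background throughout, did not overlap between E14.5 and E16.5 either. The stage means were 2745 ± 343 (E14.5; SD, n = 2), 20702 ± 412 (E16.5; SD, n = 3) and 545 ± 193 (E18.5; SD, n = 3). Taken as shares of the E16.5 mean, the E14.5 signal was 13.3% and the E18.5 signal 2.63%.

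On the log2(signal + 16) scale Krt77 was 2.91 ± 0.26 (SE) higher at E16.5 than at E14.5, a 7.53-fold difference. Its E18.5 minus E16.5 difference was −5.27 ± 0.23, a 38.7-fold lower level. Set against E14.5, the E18.5 signal was lower as well (−2.36 ± 0.26, 5.14-fold). Among the 18193 genes, the E18.5 minus E16.5 difference of Krt77 was the fifth lowest (rank 5), whereas its E16.5 minus E14.5 difference ranked 756 among the highest. There were 1738 genes with every E16.5 array above every array of both other stages. In 195 of these the E16.5 level was at least 2-fold above both, and in 17 at least 4-fold above both. By the smaller of its 2 differences Krt77 ranked 5 of all genes.

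**Figure D1:**
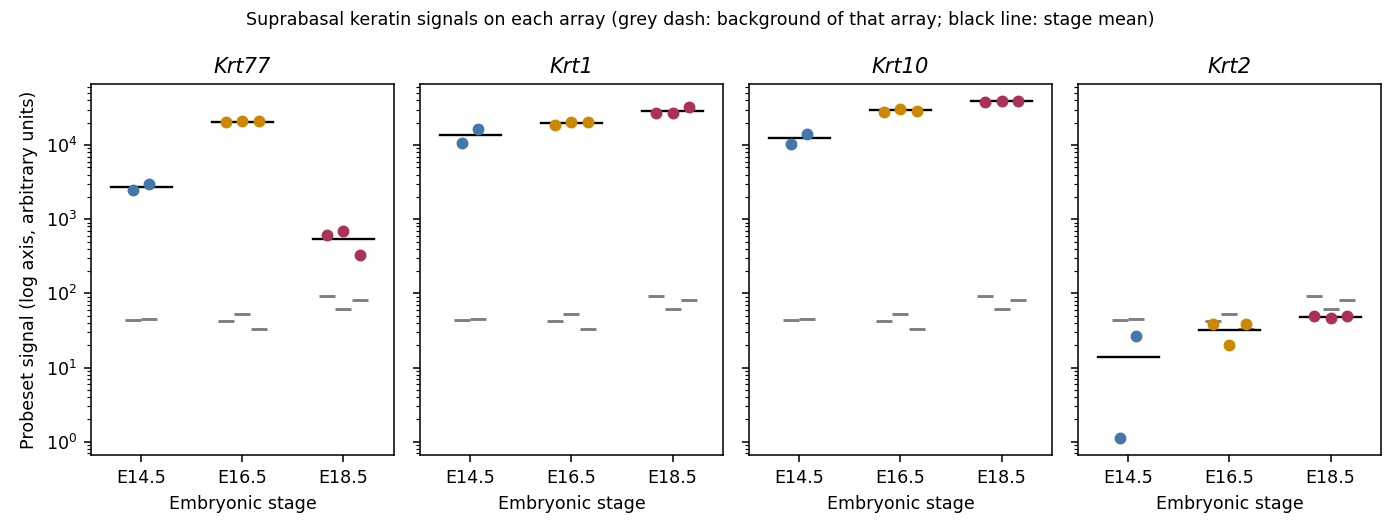
Probeset signal of Krt77, Krt1, Krt10 and Krt2 (log axis, arbitrary units) at each embryonic stage, with 1 point per array, a black line at the stage mean and a grey dash at the background of each array. Krt77 spans 20228 to 20971 on E16.5 arrays, but 327 to 696 on E18.5 arrays, while Krt1 and Krt10 are bright on every array and 7 of the 8 Krt2 points lie below background.

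Krt1, the type II keratin that marks entry into the spinous layer, gave a bright signal from the first stage. It was 10639.9 and 16676 at E14.5. At E16.5 it was 18676, 20457 and 20408, and at E18.5 it was 26988, 27233 and 32895. The stages did not overlap, although the E14.5 arrays lay far apart, with a mean of 13658 ± 4268 (SD, n = 2). The E16.5 mean was 19847 ± 1014 and the E18.5 mean 29039 ± 3342 (SD, n = 3 each). The E14.5 mean was already 47.0% of the E18.5 mean, and the E16.5 mean 68.3% of it.

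The log2 difference of Krt1 was 0.57 ± 0.18 (SE) for E16.5 minus E14.5, beside a median of 0.29 over all genes. Leaving out 1 E14.5 array moved it to 0.25 (without replicate 1) or 0.90 (without replicate 2), and centring each array on its median gene, which takes 0.85 from this difference in every gene, gave −0.28, so the sign of the first difference of Krt1 depends on how the arrays are scaled. For E18.5 minus E16.5 it was 0.54 ± 0.16, beside a median of 0.12 over all genes.

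Krt10, the type I partner of Krt1, was bright from E14.5 too. Its signal was 10336 and 14290.4 at E14.5. At E16.5 it was 27949.9, 30874 and 29203, and at E18.5 it was 38570.3, 38931 and 38916. The stages did not overlap. The E14.5 mean was 12313 ± 2796 (SD, n = 2), the E16.5 mean 29342 ± 1467 and the E18.5 mean 38806 ± 204 (SD, n = 3 each). The E14.5 mean was 31.7% of the E18.5 mean and the E16.5 mean 75.6% of it. The log2 difference was 1.27 ± 0.13 (SE) for E16.5 minus E14.5 and 0.40 ± 0.12 for E18.5 minus E16.5.

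Both signals lay at or near the top of the later arrays, taken as the brightest probeset of 1 gene symbol. Krt10 was the brightest of the 34945 probesets on all 3 E16.5 arrays and on 2 of the 3 E18.5 arrays, and the second brightest (rank 2) on E18.5 replicate 3. Its coefficient of variation at E18.5 was 0.526%, against 5.00% at E16.5 and 22.7% at E14.5. Krt1 lay at 66.3% to 69.9% of the brightest gene probeset on E16.5 arrays, then at 70.0% to 82.6% on E18.5 arrays. Krt77 lay at 67.9% to 72.4% at E16.5. At E14.5 the shares were lower for all 3, with 33.8% and 50.8% for Krt1, 32.9% and 43.5% for Krt10, and 7.96% and 9.10% for Krt77.

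On the E14.5 arrays the brightest probeset of any kind gave 59929 and 59428, above any Krt10 signal. It was not among the probesets of 1 gene symbol, of which the brightest gave 31454 and 32828 there. On the E16.5 and E18.5 arrays no probeset of any kind was brighter than the brightest gene probeset. Where the scale of those arrays ends was not tested. The top of the arrays also differed between the later stages. The brightest gene probeset was 1.33-fold higher at E18.5 than at E16.5, and the signal at the 99.9th percentile of probesets was 1.32-fold higher. The difference of Krt1 was 1.46-fold. That of Krt10 was 1.32-fold, but Krt10 is itself the brightest probeset on 5 of these 6 arrays, so it cannot be set against their top. With quantile normalization, which gives all arrays the same distribution, the E18.5 minus E16.5 difference was 0.12 for Krt1 and −5.67 for Krt77. For Krt10 that setting holds no information, since it gives the brightest probeset the same value on every array. A signal near the top can understate a difference, and whether it did so for Krt1 and Krt10 was not tested.

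**Figure D2:**
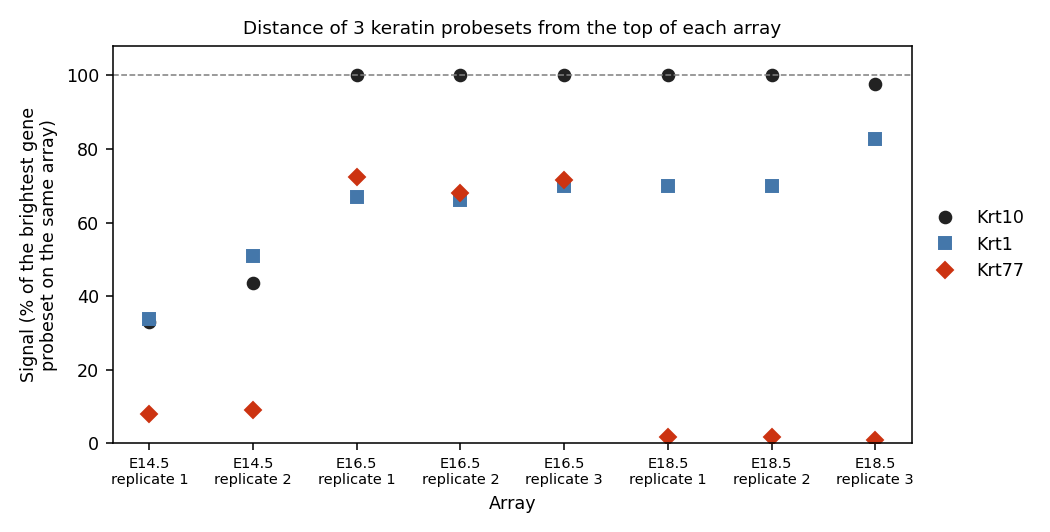
Signal of Krt10, Krt1 and Krt77 on each of the 8 arrays, as a percent of the brightest gene probeset on the same array. Krt10 sits at 100 on 5 of the 6 later arrays and at 97.7 on the other, while Krt77 spans 67.9 to 72.4 on E16.5 arrays and 0.821 to 1.79 on E18.5 arrays.

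Krt2 was not well above background at any stage. Its signal was 1.11 and 27.0 on E14.5 arrays, 38.6, 20.2 and 39.0 on E16.5 arrays, and 49.2, 46.7 and 50.1 on E18.5 arrays. One array, E16.5 replicate 3, lay above its background, at 1.16 times that level. The E18.5 signals were the highest of the 3 stages, but background was highest at that stage too, and the E18.5 signals were 0.534, 0.752 and 0.619 times the background of their arrays. No fold is given for Krt2, whose differences are those of a background-level signal, and its onset was not detectable with this probeset in dorsal skin up to E18.5.

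In order, then, Krt1 and Krt10 were bright and Krt77 was at 13.3% of its peak on the earliest arrays, all 3 were bright at E16.5, and Krt77 was at 2.63% of its peak at E18.5 while Krt1 and Krt10 were at their highest. The 4 courses were also compared after each gene was centred on its own mean over the 8 arrays, by the root mean square (RMS) difference on the log2 scale. That difference was 0.29 between Krt1 and Krt10, and 2.53 to 2.56 between Krt77 and each of the other 3 genes. Krt2 lay close to Krt1 (0.28) and Krt10 (0.35), with almost all of its own signals below background.

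The search for genes of similar course left out the 4 keratins and genes with provisional symbols, such as those ending in Rik. Whether any gene with such a symbol lay nearer is not reported. Among the genes searched, the nearest to Krt77 were Sprr1b, Saa1, Upk3b, Myh7 and Dynap. Their RMS differences were 0.69, 1.05, 1.18, 1.25 and 1.31 over the 8 arrays. Sprr1b, a cornified envelope precursor, had mean signals of 1372 (E14.5), 8723 (E16.5) and 467 (E18.5). Saa1, an acute phase protein gene, had means of 50.5, 652 and 34.6 at those stages and was above background on 4 of the 8 arrays. Upk3b (315, 432 and 27.5), Myh7, a muscle myosin gene (676, 1909 and 286), and Dynap (48.0, 222 and 17.0) differed from Krt77 by more. For Krt1 the nearest were Ptgfr (0.10), Septin1 (0.11) and Stfa3 (0.12), and for Krt10 they were Pcdh9 (0.07), Rtel1 (0.08) and Lor (0.09). Lor encodes loricrin, the main cornified envelope protein, with mean signals of 10961, 26412 and 31574 at the 3 stages, also near the top of the arrays, and of its 3 probesets 2 were lower at E16.5 than at E14.5. For Krt2 the nearest were Fahd1, Atp2b3 and Zp3 (0.19 to 0.21), which carries little weight for a gene at background.

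Most neighbours of Krt77 in the type II cluster had another course. In the annotated order the gene lies between Krt1 and Krt76, a keratin known from oral epithelium. Krt76 was below background on all 8 arrays. On the side of Krt76 follow Krt4, Krt79 and Krt78. Krt4, a periderm and oral keratin, had mean signals of 8332 (E14.5), 259 (E16.5) and 130 (E18.5). Krt79 had 36.4, 1323 and 8538, and Krt78 149, 1598 and 2509. On the side of Krt1, beyond Krt2, follow the inner root sheath keratins Krt73, Krt72 and Krt71, of which Krt73 had 21.1, 47.5 and 2254 and Krt71 5.44, 26.6 and 3888. Among Krt77 and the 8 protein-coding genes on each side, Krt6b and Tns2 were the other 2 whose log2 difference was over 1 in the first interval and negative in the second (1.92 and −0.51 for Tns2, and at least 4.63-fold higher, then −0.82, for Krt6b, which was at background at E14.5). These neighbours were chosen by position after the values of the 4 genes were known.

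**Figure D3:**
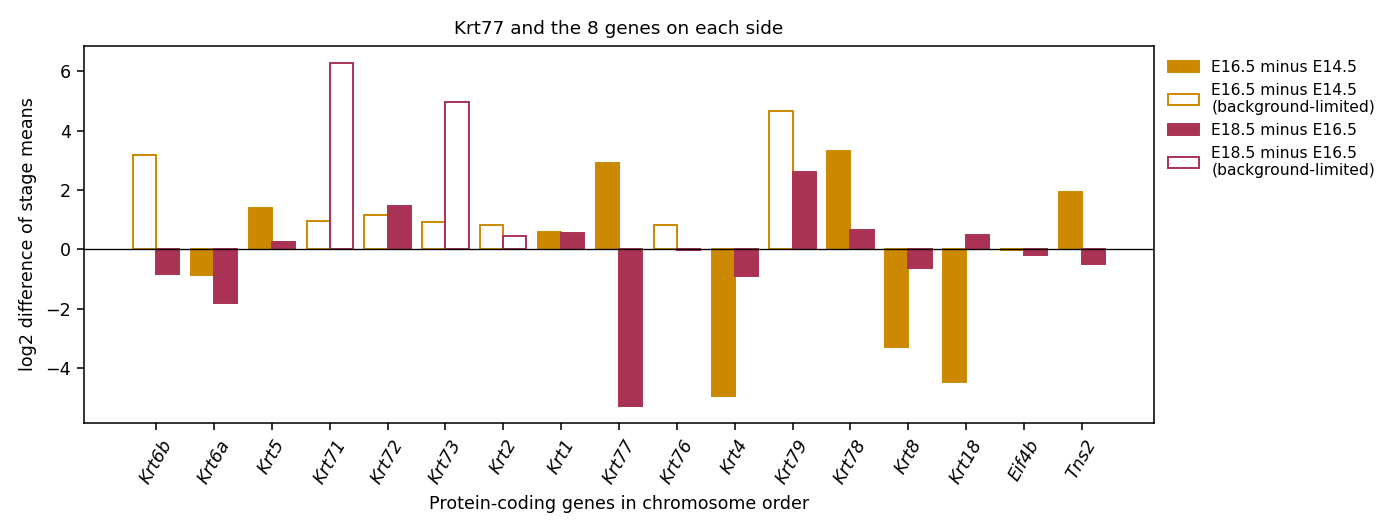
Log2 difference of stage means, E16.5 minus E14.5 and E18.5 minus E16.5, for Krt77 and the 8 protein-coding genes on each side of it in chromosome order, with open bars where the dimmer stage had an array at or below background. Krt77 (2.91 and −5.27) has the lowest second difference, while the open bars of Krt71 (at least 53.2-fold higher) and Krt73 (at least 29.3-fold higher), 5 and 3 places away, are the highest.

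Genes that work beside the suprabasal keratins were tested with limma over all 18193 genes, with a call at a Benjamini-Hochberg adjusted p under 0.05. Between E16.5 and E14.5, 37.1% of all genes rose and 20.8% fell. Between E18.5 and E16.5, 7.28% rose and 5.58% fell. The split of the first interval depended on scaling, with 6744 rises and 3782 falls as deposited and 3523 rises and 7604 falls after centring on the median gene. The split of the second was 1325 rises and 1015 falls, and 939 rises and 1235 falls after centring. Leaving out an E16.5 array lowered the second interval to 548 rises and 439 falls (replicate 1), 556 and 449 (replicate 2) or 418 and 340 (replicate 3).

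Of 28 measured spinous and granular partner genes, which encode desmosome, envelope and cytoplasmic proteins of the same cells, 22 rose, 4 fell and 2 were not called at E16.5 against E14.5. The rises were 78.6% and the falls 14.3%, beside 37.1% and 20.8% of all genes. Their median log2 difference was 1.73, beside 0.29 for all genes. Corneodesmosin, Cdsn, which holds corneocytes together, rose at least 90.3-fold, with 5723 ± 1902 at E16.5 (SD, n = 3) and a background-level 19.1 ± 6.07 at E14.5 (SD, n = 2; limma adjusted p = 4.16e-08). Flg, which encodes the keratin-aggregating protein filaggrin, rose at least 68.8-fold (limma adjusted p = 7.7e-07). Ivl, which encodes the envelope protein involucrin, rose 48.9-fold (log2 5.61 ± 0.22 SE, limma adjusted p = 4.76e-08). The 3 largest falls were of desmosomal cadherin genes. Dsc2 fell by 5.54 on the log2 scale, Dsg1b by 2.93 and Dsc3 by 1.03 (limma adjusted p = 6.58e-08, 1.76e-06 and 0.000115). The 2 probesets of Dsc2 differed in direction, as did those of Dsc3. With the mean of its probesets Dsc2 was at −2.58 and Ivl at 4.64, and Dsc3 was higher at E16.5 (log2 1.06, limma adjusted p = 0.000607).

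At E18.5 against E16.5, 3 of those 28 genes rose, 8 fell and 17 were not called, with a median of −0.07 beside 0.12 for all genes. The shares were 10.7% rises and 28.6% falls, beside 7.28% and 5.58% of all genes. The rises were of Flg (log2 1.91 ± 0.42 SE, limma adjusted p = 0.0169), Dsg1b (0.99 ± 0.20, limma adjusted p = 0.013) and Dsc3 (0.50 ± 0.13, limma adjusted p = 0.0313). Without E16.5 replicate 3, 0 of the 28 genes rose in limma, with an adjusted p of 0.0627 for Flg, 0.0602 for Dsg1b and 0.135 for Dsc3. Without E18.5 replicate 2, 1 of the 28 rose. Flg was not called without either E18.5 replicate 1 or 2 (limma adjusted p = 0.0565 and 0.0517), and Dsc3 was not called without any 1 E16.5 array or E18.5 replicate 2. Ivl (−1.05 ± 0.19, limma adjusted p = 0.00834), Tgm1, the main envelope transglutaminase (−1.02 ± 0.20, limma adjusted p = 0.0106), and Tgm3, a related enzyme (−0.94 ± 0.17, limma adjusted p = 0.00742), had the largest falls. Without E16.5 replicate 3 the falls numbered 4, and Tgm1 was not called (limma adjusted p = 0.0571). Tgm3 was not called with the mean of its 2 probesets (limma adjusted p = 0.0564).

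Of the 19 other keratins of epidermis and periderm, 11 rose, 4 fell and 4 were not called at E16.5 against E14.5, with a median of 1.71. The rises were 57.9% and the falls 21.1%, beside 37.1% and 20.8% of all genes. The basal pair rose, Krt5 by 1.39 ± 0.14 SE (limma adjusted p = 9.77e-06) and Krt14 by 1.71 ± 0.13 (limma adjusted p = 1.21e-06). The largest rises were of Krt79, known from the follicle canal (at least 21.6-fold, limma adjusted p = 5.59e-07), Krt80 (4.53 ± 0.25, limma adjusted p = 2.36e-07) and Krt23 (3.89 ± 0.38, limma adjusted p = 9.59e-06). Krt78 rose by 3.33 ± 0.24 (limma adjusted p = 1.2e-06). The largest falls were of the periderm and simple epithelial keratins Krt4 (−4.93 ± 0.21, limma adjusted p = 6.92e-08), Krt18 (−4.48 ± 0.72, limma adjusted p = 0.000338) and Krt19 (−3.49 ± 0.33, limma adjusted p = 7.55e-06). The E14.5 arrays of Krt18 were far apart, and its difference was −3.03 without E14.5 replicate 1 and −5.92 without replicate 2. Krt76 had a log2 difference of 0.82 with its signals below background (limma adjusted p = 0.165).

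At E18.5 against E16.5, 2 of the 19 keratins rose and 6 fell, with a median of −0.03. The rises were 10.5% and the falls 31.6%, beside 7.28% and 5.58% of all genes. Krt79 rose by 2.62 ± 0.27 SE (limma adjusted p = 0.000674) and Krt17, a keratin of follicle and periderm, by 1.51 ± 0.18 (limma adjusted p = 0.00141). The falls were largest for Krt13 (at least 4.71-fold, limma adjusted p = 0.0128), Krt6a (−1.80 ± 0.43, limma adjusted p = 0.0239) and Krt7 (−1.59 ± 0.21, limma adjusted p = 0.00219). Krt80 fell by 1.34 (−1.34 ± 0.23, limma adjusted p = 0.00586). Without E16.5 replicate 2 or 3 the falls numbered 2, with Krt13 and Krt6a not called (limma adjusted p up to 0.061 and 0.0886). With the mean of its 3 probesets Krt13 was at −1.27. Krt6a was also not called without E16.5 replicate 1 or E18.5 replicate 2, or with the mean of its 3 probesets. Krt5 (0.24 ± 0.12, limma adjusted p = 0.235), Krt14 (0.26 ± 0.11, limma adjusted p = 0.155) and Krt78 (0.65 ± 0.22, limma adjusted p = 0.0796) were not called, and Krt78 was called without either E14.5 array (limma adjusted p down to 0.0376 over all settings). Krt76 remained below background.

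**Figure D4:**
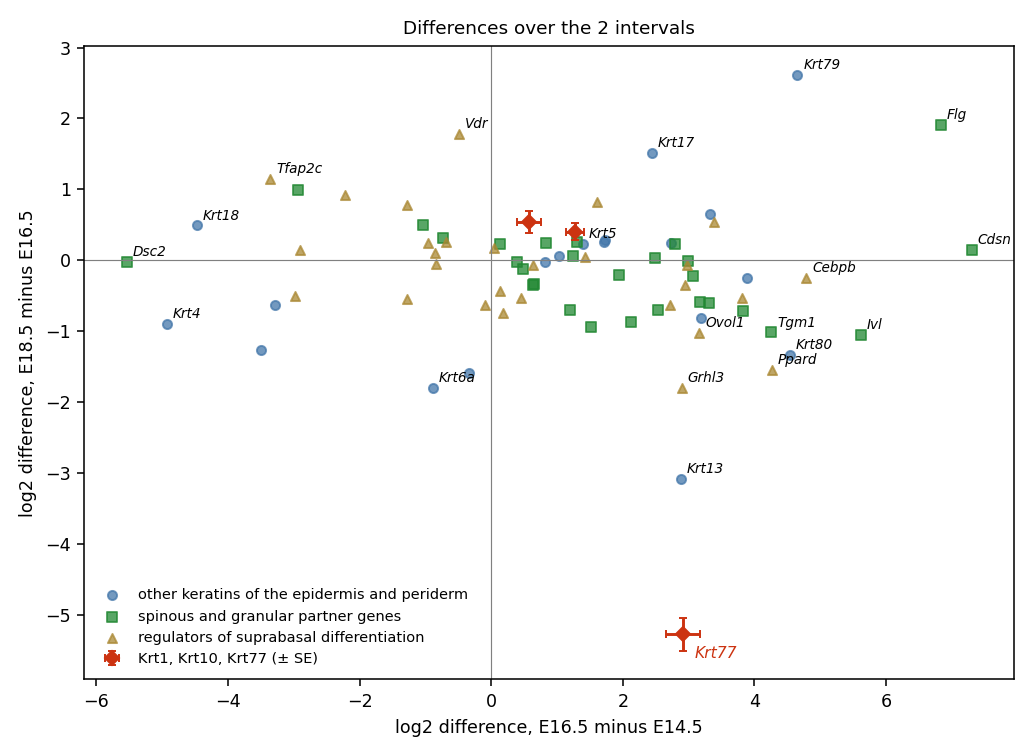
Log2 difference E16.5 minus E14.5 (horizontal) against E18.5 minus E16.5 (vertical) for the genes of the 3 lists, with Krt1, Krt10 and Krt77 as diamonds with their SE. Krt77 lies at 2.91 and −5.27, below every gene of the lists, and the other 2 diamonds lie at 0.57 and 0.54 (Krt1) and at 1.27 and 0.40 (Krt10). Fitted values are plotted also where a stage was at background, as for Krt13, the lowest gene of the lists, whose differences are bounds of at least 4.86-fold and 4.71-fold. The 2 axes share the E16.5 arrays.

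Regulators of suprabasal differentiation, among them Notch signalling genes and transcription factors, moved both ways. At E16.5 against E14.5, 12 of 28 rose and 10 fell, with a median of 0.16, beside 0.29 for all genes. The shares were 42.9% and 35.7%, beside 37.1% and 20.8% of all genes. Cebpb, a C/EBP factor, rose by 4.78 ± 0.14 SE (limma adjusted p = 2.26e-08). The nuclear receptor gene Ppard rose at least 15.6-fold (limma adjusted p = 1.37e-06), and Junb, an AP-1 subunit, at least 12.4-fold (limma adjusted p = 6.87e-06). The largest falls were of Tfap2c, an AP-2 factor (−3.36 ± 0.14, limma adjusted p = 6.03e-08), the receptor Notch2 (−2.98 ± 0.11, limma adjusted p = 3.65e-08) and the Notch ligand Jag1 (−2.90 ± 0.11, limma adjusted p = 4.99e-08). All 3 probesets of Tfap2c were lower, but Notch2 and Jag1 each had 1 probeset called in the opposite direction. With the mean of a gene's probesets the difference was −0.76 for Notch2, −0.43 for Jag1, −2.43 for Tfap2c, 5.76 for Cebpb and 2.31 for Ppard. The log2 difference of Ppard was 3.66 without E14.5 replicate 1 and 4.88 without replicate 2, against 4.27 with both. With that mean the falls numbered 4, and with centring on the median gene 16.

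At E18.5 against E16.5, 4 of the 28 regulators rose and 7 fell, with a median of −0.06. The shares were 14.3% and 25%, beside 7.28% and 5.58% of all genes. Vdr, the vitamin D receptor (1.78 ± 0.35 SE, limma adjusted p = 0.0105), Tfap2c (1.15 ± 0.12, limma adjusted p = 0.000808) and Maf (0.93 ± 0.17, limma adjusted p = 0.00836) had the largest rises. One of the 6 probesets of Maf was called lower, and the call was lost with their mean (log2 0.02, limma adjusted p = 0.967). The barrier factor Grhl3 (−1.80 ± 0.22, limma adjusted p = 0.00144), Ppard (−1.55 ± 0.29, limma adjusted p = 0.00827) and Ovol1 (−1.03 ± 0.18, limma adjusted p = 0.00727) had the largest falls. Grhl3, Ppard and Ovol1, with Krt80, Krt13, Ivl and Tgm1, were among the listed genes with higher means at E16.5 than at either other stage. Tgm3, Notch1 and further listed genes had that shape too, and 1738 of all 18193 genes had every E16.5 array above both other stages. Ovol1 had 1 of its 2 probesets lower at E16.5 than at E14.5, and Krt13 had 1 of its 3. The call of Ppard was lost with the mean of its 2 probesets (limma adjusted p = 0.0653). Without an E16.5 array the falls numbered 3 (replicate 2 or 3) or 4 (replicate 1).

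Markers of the other cells of the tissue moved over the same intervals, though all 9 periderm markers, and 3 of the 11 basal ones, are also among the 19 keratins above. Of all genes, 37.1% rose and 20.8% fell in the first interval, and 7.28% rose and 5.58% fell in the second. Counts and sums use the brightest probeset of each marker. In the first interval the basal markers Itga6, Itgb1 and Dst also had a probeset called in the opposite direction. So did the fibroblast markers Col1a1, Col3a1, Dcn and Pdgfra and the blood marker Slc4a1, and in the second interval Col1a1. At E16.5 against E14.5, 10 of 11 basal keratinocyte markers rose and 1 fell, with a summed signal of 56754 to 63647 at E16.5 and 25741 to 29824 at E14.5. Of 9 periderm markers 3 rose and 4 fell, with sums of 6685 to 10239 at E16.5 and 19166 to 25872 at E14.5. Of 13 hair follicle keratin markers 1 rose and 1 fell, with sums of 360.02 to 481 at E16.5 and 1200 to 1330 at E14.5. The fall was of Tchh, with means of 1064 at E14.5 and 48.2 at E16.5. Of 9 dermal fibroblast markers 6 rose and 2 fell (130101 to 134933 at E16.5, 80157 to 81745 at E14.5), all 8 skeletal muscle markers rose (80551 to 88577 at E16.5, 10185 to 19408 at E14.5), and of 4 blood markers 1 rose and 2 fell (4852 to 9041 at E16.5, 13296 to 17736 at E14.5).

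At E18.5 against E16.5, 10 of 13 hair follicle keratin markers rose and 0 fell, with sums of 7563 to 38336 at E18.5 and 360.02 to 481 at E16.5. One basal marker of 11 rose and 0 fell, with sums of 64602 to 76729 at E18.5 and 56754 to 63647 at E16.5. Of 9 periderm markers 1 rose and 5 fell (7177 to 11501 at E18.5, 6685 to 10239 at E16.5), of 9 fibroblast markers 3 rose (144342 to 176992 at E18.5), 1 of 8 muscle markers rose (98388 to 147289 at E18.5) and 3 of 4 blood markers fell (1649 to 2532 at E18.5). The periderm sum at E18.5 came mostly from Krt17 (mean 5531, from 1889 at E16.5) and Krt23 (3201, from 3586). Of the remaining periderm markers the highest mean at E18.5 was 373 (Krt6a). The part of the other cells of the tissue in the differences of the 4 keratins was not tested. E18.5 replicate 3, which had the lowest Krt77 and the highest Krt1 of its stage, also had the lowest hair follicle (7563), basal (64602), periderm (7177) and partner gene (268923) sums of its stage, and the highest fibroblast (176992) and muscle (147289) sums.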

How the data were processed

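The deposited values are probeset signal intensities on a linear scale for 45101 probesets on 8 arrays. The submitters' processing notes name PLIER 2.0 and Affymetrix Expression Console 1.1 without saying what each did. The authors' background correction and scaling of the arrays were not given in the sources used here. Per the labels' protocols the targets were random-primed sense DNA, a method for whole-transcript arrays, whereas this array is a 3′ design. Probes were named from the platform annotation: 34958 probesets carried 1 symbol, 932 several and 9211 none. Of the 64 control probesets 13 carried 1 symbol, and leaving them out left 34945, and the brightest probeset (highest mean log2 signal) stood for each of 18193 genes.

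Signals were analysed as log2(signal + 16). In R 4.3.3, limma 3.58.1 fitted 1 mean per stage to all 8 arrays (lmFit, eBayes with a variance trend), and calls were made at a Benjamini-Hochberg adjusted p under 0.05 over all genes. Every adjusted p is from limma. If the dimmer stage had an array at or under background, the fold is a lower bound ("at least"), taken against the larger of background and signal on each array. The number of arrays limits the precision. The script was tested on simulated data. Alternatives were other pseudocounts (1 and 64), quantile normalization, median centring, the mean of a gene's probesets, a filter on genes above background, no variance trend, fits to the compared stages alone, and leaving out each array.

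The 4 members and the gene lists were chosen with earlier results of these data known. Of each list and interval, up to 3 called rises and 3 falls with arrays that did not overlap were named. Krt5, Krt14, Krt76, Krt78, Krt79 and Krt80 were always named. So were the 5 genes (3 for Krt1, Krt10 and Krt2) of most similar course, among genes without a provisional symbol. Some listed genes are not reported here, and counts are over the members measured. Settings for the single named genes were added after the data were seen.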

Additional observations from a re-analysis of the deposited data

How the results depend on the processing

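The peak of Krt77 at E16.5 kept its direction in both intervals under every setting tried. Its E16.5 minus E14.5 log2 difference of 2.91 was 3.35 with quantile normalization and 2.06 with median centring, and 2.79 to 3.04 with 1 array left out. Its E18.5 minus E16.5 difference of −5.27 was −5.67 with quantile normalization, and −5.48 to −4.95 with 1 array left out. With quantile normalization Krt1 had 1.08 and 0.12 in the first and second interval, and Krt10 had 1.80 and −0.025, the last fixed near 0 by the setting, since Krt10 has rank 1 or 2 on all 6 later arrays. With median centring the first difference was −0.28 for Krt1, 0.42 for Krt10 and −0.0393 for Krt2, each lower by the same 0.85, which turned the sign of Krt1. The Krt2 values are differences of a signal at background and carry no information on the gene. With 1 array left out the first difference was 0.25 to 0.90 for Krt1, 1.04 to 1.503 for Krt10 and 0.15 to 1.48 for Krt2. The second was 0.45 to 0.59, 0.37 to 0.44 and 0.24 to 0.54. For Krt2 the first difference was 2.07 with a pseudocount of 1 and 0.32 with a pseudocount of 64.

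For all genes in the first interval, median centring gave 3523 rises and 7604 falls, and the mean of all probesets 2484 falls. In the second interval that mean gave 660 falls, and eBayes without a variance trend 629. With 1 array left out there were 6122 to 6897 rises and 3361 to 3917 falls in the first interval, and 418 to 1523 rises and 340 to 1260 falls in the second. The regulators that fell in the first interval numbered 16 with median centring and 4 with the mean of all probesets. In the second, 2 rose with that mean, and 4 fell without a variance trend. With 1 array left out, in the first interval, 10 to 12 other keratins rose and 4 fell, 20 to 23 partner genes rose and 4 fell, and 11 to 13 regulators rose and 9 or 10 fell. In the second, 2 or 3 keratins rose and 2 to 6 fell, 0 to 3 partner genes rose and 4 to 8 fell, and 3 or 4 regulators rose and 3 to 8 fell.

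With quantile normalization the second difference was −0.0234 for Krt14 and −0.11 for Krt5. Dsc3 was 1.06 in the first interval with the mean of its probesets. Krt76, below background, was −0.0295 in the first interval with median centring, and in the second 0.0217 with a pseudocount of 64 and −0.52 to 0.24 with 1 array left out. Without an E14.5 array, the lone array left is assumed to vary like the other stages. No cause was tested. No paired analysis was possible because no label ties arrays of different stages together, the codes in the titles are not explained, and the replicate numbers used here only name arrays. Signal near the top of the arrays may limit Krt1 and Krt10, which was not tested, and background limits Krt2.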
